A study of Homo sapiens with 4 samples.

Results

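WNT signalling genes were followed in 22Rv1, an established human prostate cancer cell line, after treatment with a herbal extract. The extract, WCE, was given to the cells at 10 µg/mL for 16 h (2 arrays), and the controls received vehicle for the same 16 h (2 arrays). All cells came from the same line, and the labels name no other agent or genetic change. RNA was amplified to biotinylated cRNA and measured on Illumina bead arrays, on which each probe gives a signal and a detection p-value, which is low where the probe outshone nearly all negative control beads. Whether the 2 arrays of a group stem from different cultures is not stated in the labels, and the p-values measure the spread among these samples alone, technical or not.

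The members were chosen by gene symbol in the array's platform annotation: WNT ligands, FZD receptors, DKK and SFRP antagonists, TLE co-repressors and a named set of co-receptors, scaffolds, enzymes and transcription factors of the pathway. The rule found 90 probes of 64 gene symbols, among 47320 probes and 20046 named genes on the arrays. One of the 64 is FZD4-DT, a noncoding transcript divergent from FZD4 that carries the same stem in its symbol, and TCF7 is not analysed here. Of the 64 genes, 39 had a probe detected on at least 1 array and 25 had none, and 35 passed the filter and were tested. Of those 35, 30 were detected on all 4 arrays and 5 passed through 1 group alone, WNT8A and TLE4 through WCE and DKK2, WNT3 and LGR4 through vehicle. A gene that passes through 1 group alone is selected for a difference, so its direction is partly set by the filter.

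WNT proteins are secreted, lipid-modified ligands that bind a Frizzled receptor together with the co-receptor LRP5 or LRP6. Without a ligand, a destruction complex of AXIN, APC and the kinases GSK3 and CK1 marks beta-catenin, the product of CTNNB1, for degradation; with a ligand, Dishevelled recruits AXIN to the membrane, beta-catenin accumulates and binds TCF and LEF factors in the nucleus, and TLE co-repressors are displaced. In the prostate the pathway takes part in gland development and epithelial renewal, and mutations of CTNNB1, APC and RNF43 are known in prostate cancer.

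None of the 35 tested WNT signalling genes passed the threshold between WCE and vehicle, an adjusted p below 0.05 after Benjamini-Hochberg adjustment over all 12136 tested genes in limma, a linear model with pooled variance. Over all 12136 genes 222 passed, or 1.83%, of which 140 were higher with WCE (1.15%) and 82 lower (0.676%). At an unadjusted p below 0.05 there were 11 members, 7 higher and 4 lower with WCE, against 19.1% of all tested genes. Of the 30 members detected on all 4 arrays, 7 lay below that unadjusted p. In 20 of the 35 members the WCE arrays did not overlap the vehicle arrays, 12 above and 8 below, against 50.3% of all tested genes. Of the 30 members detected on all 4 arrays, 16 did not overlap. The median log2 fold change of the 35 members was -0.04, beside 0.015 over all tested genes, with 14 members positive and 21 negative. Only LEF1 and FZD5 differed by 1.5-fold or more in this fit, 2 of 35 members beside 1032 of 12136 genes. FZD5 rests on single arrays there: its log2 fold change was -0.26 without WCE replicate 1, -1.02 without WCE replicate 2, -0.28 without vehicle replicate 1 and -0.99 without vehicle replicate 2. Which genes pass depends on single arrays. Without WCE replicate 1 the log2 fold changes of FZD2 and NKD2 were both 0.74, and without WCE replicate 2 they were 0.33 and 0.15. A fit that leaves 1 array in a group takes its spread from the other group alone, so its p-values hold no spread between WCE arrays there.

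With 2 arrays a group the precision was limited. The 95% interval of a member's log2 fold change was between 0.70 and 1.31 wide, with a median width of 0.75, and the smallest change that passed among all genes was 0.77 on the log2 scale. A count of 0 members past the threshold therefore does not show that the members were unaffected. An exact permutation test of 2 arrays against 2 cannot give a two-sided p below 0.333, and each member's test draws on the variance limma pools across genes. In bulk RNA, fewer cells expressing a gene and less of its RNA per cell cannot be told apart.

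**Figure D1:**
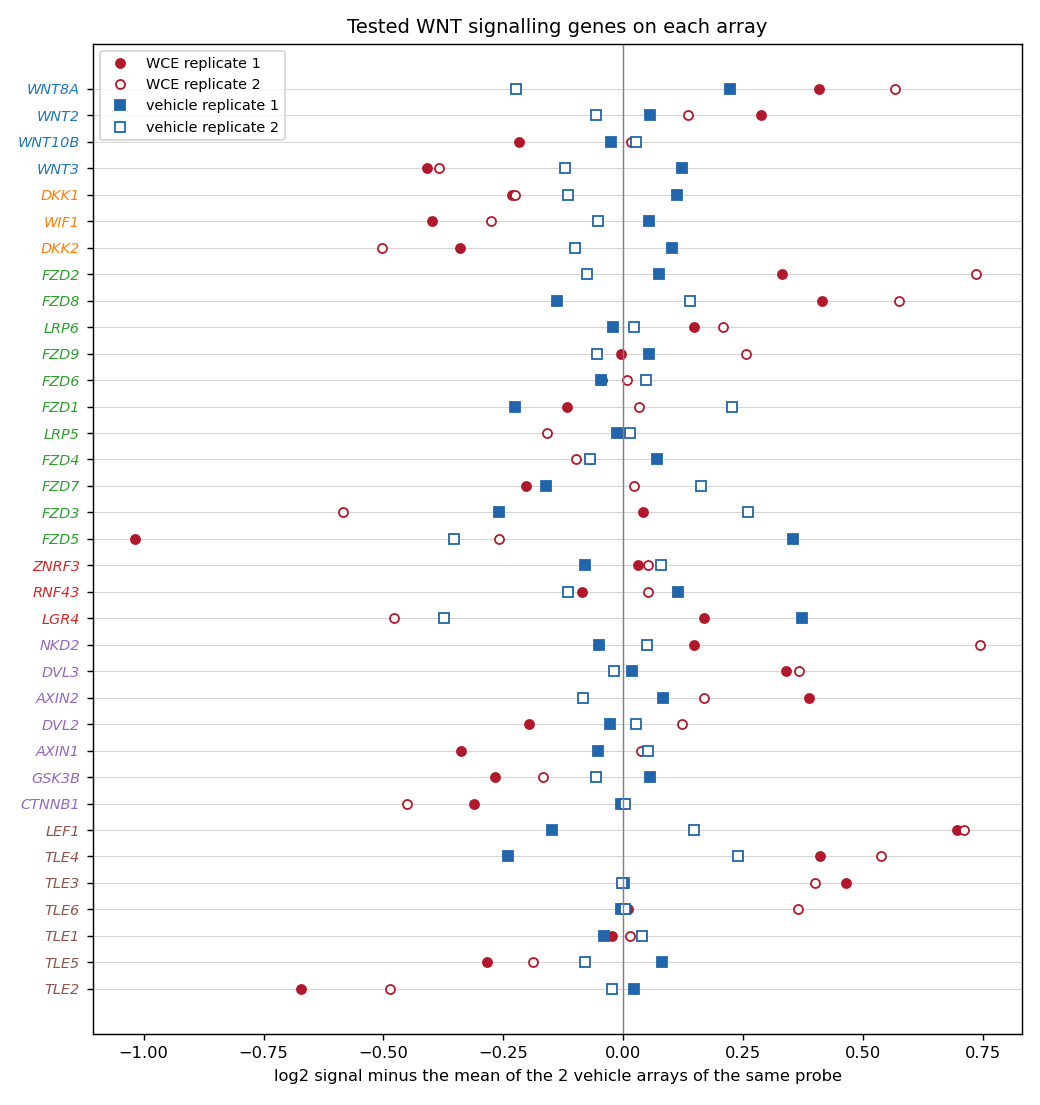
Normalized log2 signal of each tested WNT signalling gene on each array, minus the mean of the 2 vehicle arrays for the same probe. Circles are WCE arrays and squares vehicle arrays, filled for replicate 1 and open for replicate 2. Label colours mark the roles listed beside the plot of fold changes. The WCE arrays lay outside the vehicle arrays in 20 of the 35 genes, beside 50.3% of all tested genes.

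**Figure D2:**
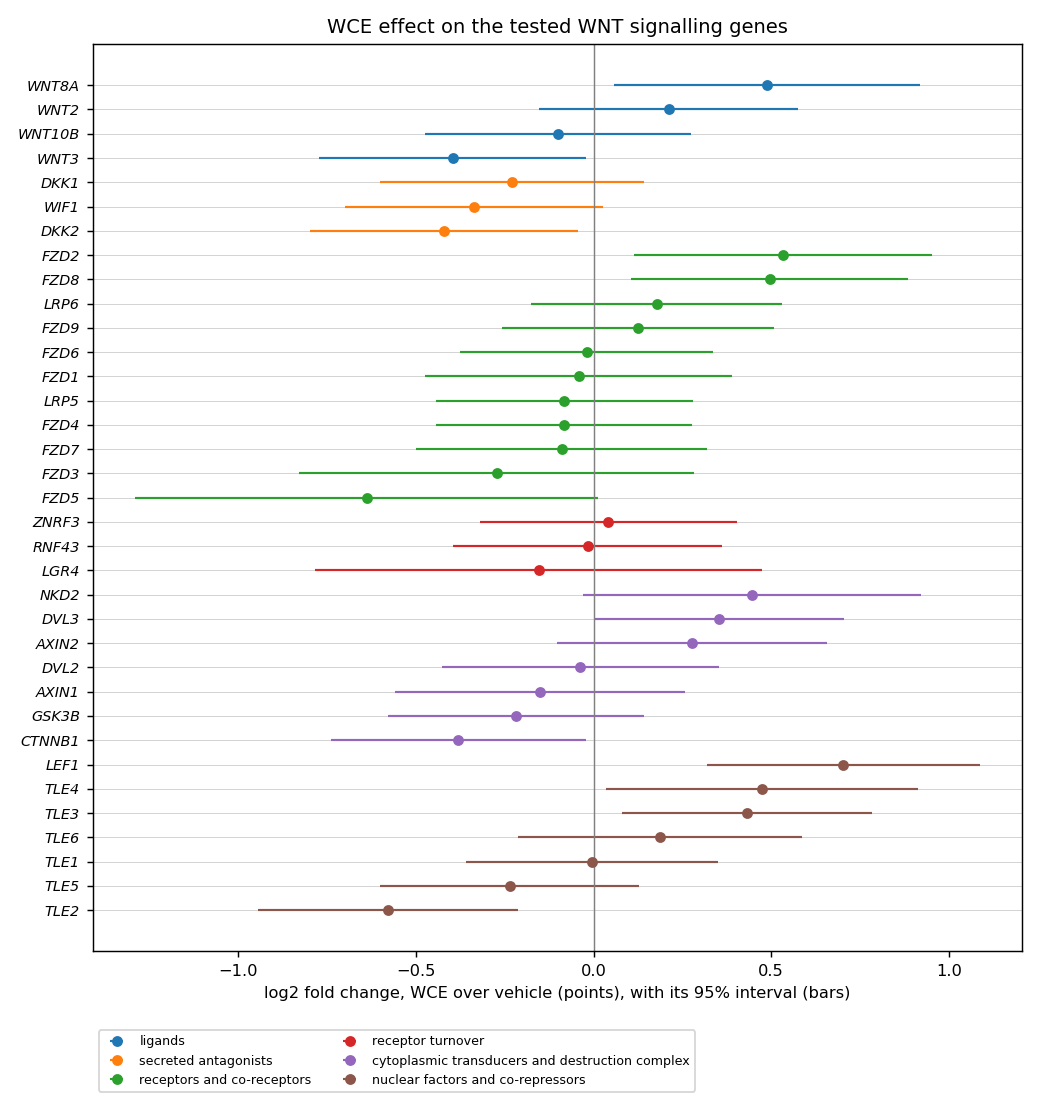
Log2 fold change of WCE over vehicle for the 35 tested genes (points) with the 95% interval of limma's fit (bars), grouped by role. The point farthest above 0 is LEF1 at 0.70 and the point farthest below 0 is FZD5 at -0.64.

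The 4 arrays were alike in brightness and detection. Median raw signals were 85.1 and 81.7 on the WCE arrays and 83.5 and 82.95 on the vehicle arrays, with 45.24% to 48.86% of all probes detected per array. Of the 90 member probes, 45 and 41 were detected on the WCE arrays and 42 and 43 on the vehicle arrays, while 41 were detected on no array. The arrays of a group correlated at 0.992 for WCE and 0.994 for vehicle across all probes. The labelled cell type was checked against markers: the luminal prostate genes KRT8, KRT18, EPCAM, HOXB13, FOLH1 and CDH1 were detected on all 4 arrays and KLK3 on none, while the 4 basal and 4 endothelial marker genes with a probe were detected on none. Of the leukocyte markers, PTPRC and CD3E were detected on no array and MS4A1 on 1, while CD68, CD14 and LYZ each had a probe detected on all 4. Of the stromal markers ACTA2, LUM and COL1A1 were detected on all 4 arrays and DCN on 3 with its brightest probe.

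Detection differed by role in the pathway. Ligands and secreted antagonists were mostly at the level of the negative control beads, with 4 of 19 ligands and 3 of 9 antagonists tested. Of the other roles, 11 of 13 receptor and co-receptor symbols, 3 of 4 receptor turnover genes, 7 of 10 cytoplasmic genes and 7 of 9 nuclear genes were tested. Genes with no probe detected on any array numbered 13 among the ligands, 6 among the antagonists, which include the WNT-binding SFRP1, SFRP2, SFRP4 and SFRP5, 3 among the cytoplasmic genes and 1 in each other role. In the 25 genes not detected anywhere, including APC, a scaffold of the destruction complex, LGR5, a receptor for R-spondins, and NKD1, a Dishevelled-binding inhibitor, neither a change nor its absence could be measured. Another 4 untested genes were detected on scattered arrays: TCF7L2, a TCF factor of the pathway, and FZD4-DT on 1 WCE and 1 vehicle array each, and WNT5B and WNT9B on 1 vehicle array each.

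**Figure D3:**
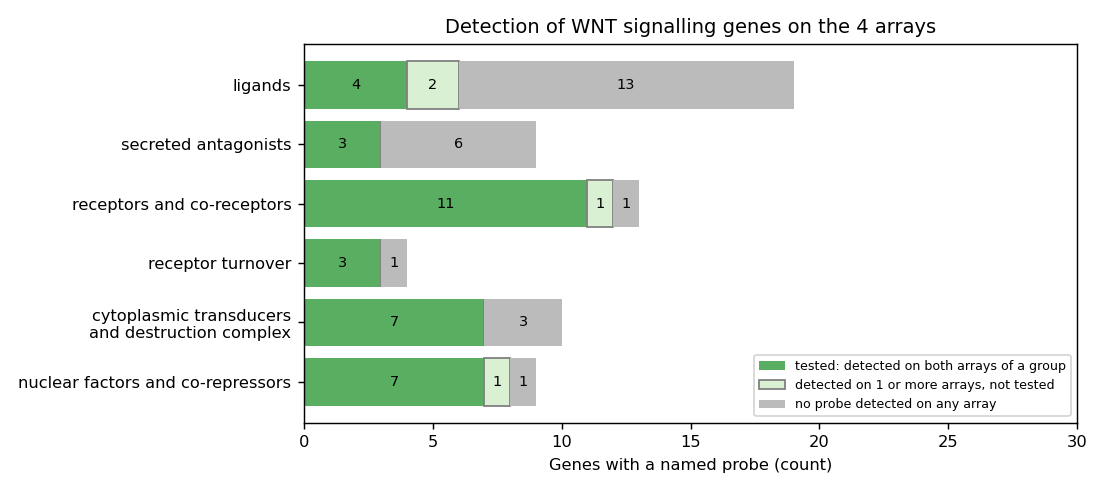
Number of WNT signalling genes with a named probe in each role (horizontal axis, count of genes), split into genes tested, genes detected on at least 1 array but not tested, and genes with no probe detected. Of 19 ligands 13 had no detected probe, while 11 of 13 receptor and co-receptor symbols were tested.

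Among the nuclear factors, LEF1 had the smallest p of the tested members. LEF1 encodes a DNA-binding factor that carries beta-catenin to target genes and is itself a known WNT target. Its brighter probe, ILMN_2213136, read 8.43 and 8.44 log2 units on the WCE arrays and 7.58 and 7.88 on the vehicle arrays. Both WCE arrays lay above both vehicle arrays, and the vehicle arrays lay farther apart than the WCE arrays. The log2 fold change was 0.70 ± 0.17 (SE of limma's fit, 2 arrays a group), with a 95% interval of 0.32 to 1.09, or 1.63-fold, and an adjusted p of 0.0788, which missed the threshold. A second LEF1 probe, ILMN_1679185, read 8.34 and 8.20 on the WCE arrays and 7.50 and 7.85 on the vehicle arrays, also without overlap. Its log2 fold change was 0.60 ± 0.19, with an adjusted p of 0.162 when every probe was tested on its own in limma.

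The side of the threshold on which LEF1 lay changed with the processing. In 6 of 16 other settings LEF1 passed in limma. It did so without background correction (adjusted p 0.0411), with a larger offset (0.0431) and in the authors' processed values (0.0416). A stricter detection filter (0.0486), a trended robust variance (0.038) and the replicate number as a block (0.0329) did the same. The settings were not separate checks: without background correction and in the authors' values the log2 fold changes were 0.587 and 0.589. In the block fit LEF1, TLE2, FZD2 and FZD8 had the same SE, 0.22373. Its p there used a variance shared across genes and not LEF1's own spread. With a crossed replicate block the adjusted p was 0.0774 in limma. Its log2 fold change ran between 0.56 and 0.85 over the 16 settings and was positive in each, while its adjusted p reached 0.44 without vehicle replicate 1, the dimmer of the vehicle arrays for this probe.

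**Figure D4:**
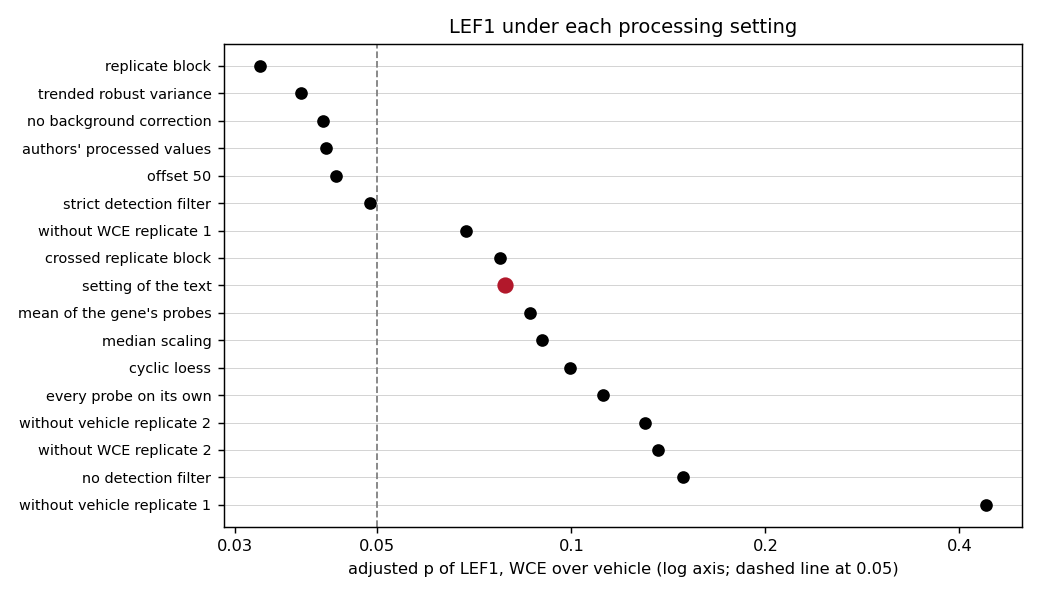
Adjusted p of LEF1 for WCE over vehicle (horizontal log axis) in the setting of the text (red) and in 16 other settings (black), ordered by value, with a dashed line at the threshold of 0.05. The points run between 0.0329 and 0.44, and 6 of the 16 lie left of the line.

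The promoters of the 3 members with the smallest p that had an entry in the RefSeq promoter table (GRCh38.p14) are shown, so that the letters of a TCF/LEF core and of an aryl hydrocarbon receptor core can be seen where they stand. Each is the 250 bases before the annotated start, 5′ to 3′ on the gene's strand, which is the minus strand in all 3. Capitals mark CTTTG, the TCF/LEF core, in LEF1 and GCGTG, the aryl hydrocarbon receptor core, in TLE2 and FZD8, or their reverse complements CAAAG and CACGC. The LEF1 window lies at chr4:108166302-108166551, and its annotated start is 2631 bases inside the outer end of the gene. The TLE2 window lies at chr19:3047636-3047885 and the FZD8 window at chr10:35642297-35642546.
LEF1: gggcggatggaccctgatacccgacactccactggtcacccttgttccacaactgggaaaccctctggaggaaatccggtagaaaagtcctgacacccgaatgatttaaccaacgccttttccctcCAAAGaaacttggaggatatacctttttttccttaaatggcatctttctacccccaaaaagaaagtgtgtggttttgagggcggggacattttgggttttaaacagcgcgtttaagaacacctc
TLE2: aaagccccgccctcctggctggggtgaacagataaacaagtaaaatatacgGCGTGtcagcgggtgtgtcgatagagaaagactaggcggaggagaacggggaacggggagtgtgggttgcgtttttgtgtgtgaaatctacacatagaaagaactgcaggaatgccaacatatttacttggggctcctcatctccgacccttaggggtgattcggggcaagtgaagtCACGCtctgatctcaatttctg
FZD8: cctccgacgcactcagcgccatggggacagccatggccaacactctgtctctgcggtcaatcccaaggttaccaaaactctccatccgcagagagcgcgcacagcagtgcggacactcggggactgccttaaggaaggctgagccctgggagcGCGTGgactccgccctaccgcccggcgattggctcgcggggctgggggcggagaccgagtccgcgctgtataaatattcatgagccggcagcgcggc

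Of the 35 tested members 26 had such a window. A member was counted by its outermost window alone, while the shares are over all windows, and a gene can have several. The counts and shares are therefore in unlike units. CTTTG, searched on both strands, stood in 8 of the 26, those of LEF1, TLE4, WNT3, WIF1, TLE5, DKK1, FZD1 and RNF43, beside 42.1% of all 35116 windows in the table. GCGTG, searched on both strands, stood in 10 of the 26, those of TLE2, FZD8, WNT3, NKD2, GSK3B, AXIN1, FZD9, LGR4, RNF43 and TLE1, beside 32.2% of all windows. The closing G of CTTTG can also open GCGTG, so neighbouring matches may share 1 base. A match of 5 letters is a description of the sequence and not a binding site. LEF1 has 1 match of the first and none of the second in its window, TLE2 has 2 matches of the second and FZD8 has 1.

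Of the TLE genes, TLE1 to TLE4 encode Groucho-type co-repressors that bind TCF and LEF factors. The values of the family pointed in both directions. TLE2 read 6.51 and 6.69 log2 units with WCE and 7.20 and 7.16 with vehicle. Both WCE arrays were dimmer than both vehicle arrays, with a log2 fold change of -0.58 ± 0.16 and an adjusted p of 0.111 in limma. TLE3 read 7.04 and 6.98 with WCE and 6.58 and 6.57 with vehicle. Here the WCE arrays were the brighter, by 0.43 ± 0.16 on the log2 scale, with an adjusted p of 0.183 in limma. TLE4 read 5.43 and 5.56 with WCE, and 4.78 and 5.26 with vehicle, where it was detected on 1 of 2 arrays. Its log2 fold change was 0.47 ± 0.19 (limma, adjusted p 0.229). TLE4 was kept through its WCE arrays alone, so its direction is partly set by the filter. TLE5, a shorter family member that lacks the WD repeats of the others, had a log2 fold change of -0.24 ± 0.16, with an adjusted p of 0.477 in limma. Its second detected probe had -0.38. TLE6 and TLE1 had log2 fold changes of 0.19 ± 0.18 and 0.00 ± 0.16, with adjusted p of 0.62 and 0.993 in limma.

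**Figure D5:**
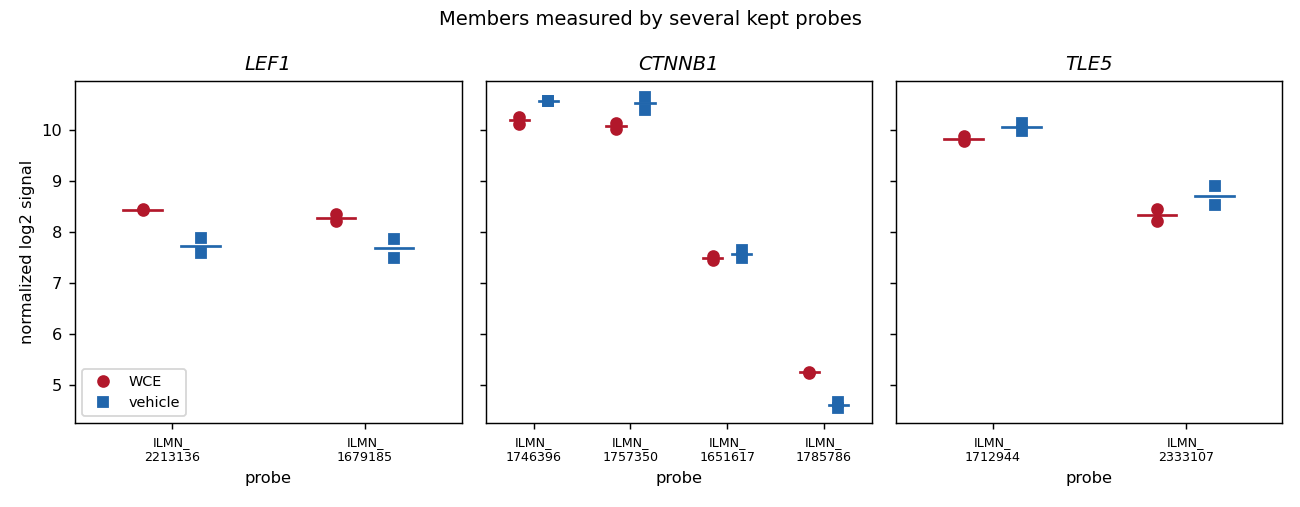
Normalized log2 signal of every kept probe of LEF1, CTNNB1 and TLE5 on each array (WCE circles, vehicle squares, bars at group means). Both LEF1 probes were brighter on the WCE arrays, while 3 CTNNB1 probes had a lower mean with WCE and the dimmest one, ILMN_1785786, kept through its WCE arrays alone, a higher mean.

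CTNNB1, which encodes beta-catenin, was represented by 4 kept probes of 7. The brightest, ILMN_1746396, read 10.26 and 10.12 log2 units with WCE and 10.57 and 10.58 with vehicle. Both WCE arrays were dimmer, by a log2 fold change of -0.38 ± 0.16 with an adjusted p of 0.238 in limma. ILMN_1757350 read 10.15 and 10.02 with WCE and 10.66 and 10.39 with vehicle, a difference of -0.44, and ILMN_1651617 differed by -0.08 with overlapping groups. The fourth, ILMN_1785786, ran the other way, at 5.26 and 5.23 with WCE and 4.66 and 4.54 with vehicle, where it was not well above background on either array. For that probe only a bound can be given, at least 1.12-fold higher with WCE. Its fitted difference, and not the bound, had an adjusted p of 0.118 when every probe was tested on its own in limma. The bound sets the mean of the detected arrays against, on each array of the other group, the larger of the lowest detected signal and this probe's value, and it holds with this background correction. That probe was kept through its WCE arrays alone, so its direction is partly set by the filter, while the other 3 were detected on all 4 arrays and each had a lower mean with WCE. The size of the CTNNB1 difference moved with the processing, to -0.26 (limma, adjusted p 0.422) with median scaling. The mean of the 4 probes gave -0.07 (limma, adjusted p 0.864). That mean takes in ILMN_1785786, which ran the other way and was kept through its WCE arrays alone. The platform annotation ties the 4 probes to different transcript records, ILMN_1785786 to one and the other 3 to another.

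The other cytoplasmic members also missed the threshold. AXIN2, a scaffold of the complex and a widely used WNT target gene, read 7.15 and 6.93 log2 units with WCE and 6.85 and 6.68 with vehicle. The WCE arrays were both above the vehicle arrays, but the log2 fold change was 0.28 ± 0.17 with a 95% interval of -0.10 to 0.66 and an adjusted p of 0.419 in limma. AXIN1, its constitutive relative, had overlapping groups and a log2 fold change of -0.15 ± 0.18. GSK3B, the kinase that phosphorylates beta-catenin, read 8.83 and 8.93 with WCE and 9.15 and 9.04 with vehicle. Its WCE arrays were the dimmer, with a log2 fold change of -0.22 ± 0.16 and an adjusted p of 0.509 in limma. Of the Dishevelled genes, which relay the receptor signal, DVL3 read 8.80 and 8.83 with WCE and 8.48 and 8.44 with vehicle. These groups did not overlap, and DVL3 had a log2 fold change of 0.35 ± 0.16 with an adjusted p of 0.261 in limma. DVL2 had overlapping groups and a log2 fold change of -0.04 ± 0.17. NKD2, which binds Dishevelled and dampens the signal, read 7.11 and 7.71 with WCE and 6.91 and 7.01 with vehicle. The second WCE array stood well above the first, and the log2 fold change was 0.45 ± 0.21 with an adjusted p of 0.293 in limma. Without WCE replicate 1 the log2 fold change was 0.74, and without WCE replicate 2 it was 0.15.

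Receptors had values on both sides of vehicle. FZD2 read 5.70 and 6.10 log2 units with WCE and 5.44 and 5.29 with vehicle, without overlap. Its log2 fold change was 0.53 ± 0.19 with an adjusted p of 0.17 in limma. The change was 0.74 without WCE replicate 1, the dimmer WCE array, and 0.33 without WCE replicate 2. FZD8 read 6.88 and 7.04 with WCE and 6.32 and 6.60 with vehicle, also without overlap, and had a log2 fold change of 0.50 ± 0.17 with an adjusted p of 0.171 in limma. FZD5 read 6.22 and 6.98 with WCE and 7.60 and 6.89 with vehicle. The groups overlapped and both were widely spread, and the log2 fold change of -0.64 ± 0.29 had an adjusted p of 0.273 in limma. FZD3 read 8.39 and 7.76 with WCE and 8.09 and 8.61 with vehicle, with overlap, and a log2 fold change of -0.27 ± 0.25 (limma, adjusted p 0.604).

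The remaining receptors showed small differences. LRP6 had a log2 fold change of 0.18 ± 0.16 and LRP5 of -0.08 ± 0.16, with adjusted p of 0.592 and 0.832 in limma. FZD9, FZD4, FZD7 and FZD6 had log2 fold changes of 0.13, -0.08, -0.09 and -0.02, each with overlapping groups. FZD1 had a pair of kept probes with opposite signs. The brighter, ILMN_2222065, read 7.57 and 7.72 with WCE and 7.46 and 7.91 with vehicle and differed by -0.04, while ILMN_1696546 read 6.77 and 6.83 with WCE and 6.74 and 6.53 with vehicle and differed by 0.16. RNF43 and ZNRF3, membrane ubiquitin ligases that remove Frizzled from the cell surface and are themselves WNT targets, had log2 fold changes of -0.02 ± 0.17 and 0.04 ± 0.16, with overlapping groups and adjusted p of 0.972 and 0.926 in limma. LGR4, an R-spondin receptor that restrains these ligases, read 5.76 and 5.11 with WCE, where it was detected on 1 of 2 arrays, and 5.96 and 5.21 with vehicle, a log2 fold change of -0.15 ± 0.28 (limma, adjusted p 0.816). In both groups replicate 1 was the brighter array for LGR4. LGR4 was kept through its vehicle arrays alone, so its direction is partly set by the filter.

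Few ligands could be followed. WNT8A read 5.15 and 5.31 log2 units with WCE and 4.97 and 4.52 with vehicle, where it was not well above background on either array. Between these arrays the bound was at least 1.11-fold higher with WCE. The fitted difference, and not the bound, had an adjusted p of 0.21 in limma. WNT8A was kept through its WCE arrays alone, so its direction is partly set by the filter. WNT3 was detected on both vehicle arrays and not well above background with WCE, with 4.86 and 4.88 on the WCE arrays and 5.39 and 5.15 on the vehicle arrays. Here the bound was at least 1.10-fold lower with WCE, and the adjusted p of 0.238 in limma again belongs to the fitted difference. WNT3 was kept through its vehicle arrays alone, so its direction is also partly set by the filter. Neither bound takes in the spread between arrays. WNT2 and WNT10B were detected on all 4 arrays, with log2 fold changes of 0.21 ± 0.16 and -0.10 ± 0.17 and adjusted p of 0.527 and 0.799 in limma.

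All 3 tested secreted antagonists had lower means with WCE, and none passed the threshold in limma. Of these, DKK2 was kept through its vehicle arrays alone, so its direction is partly set by the filter. DKK1, which blocks LRP5 and LRP6 and is a WNT target, read 9.80 and 9.81 log2 units with WCE and 10.15 and 9.92 with vehicle. Its WCE arrays nearly coincided below both vehicle arrays, and its log2 fold change was -0.23 ± 0.16 with an adjusted p of 0.499 in limma. A second DKK1 probe differed by -0.21 with overlapping groups. WIF1, which binds WNT ligands outside the cell, read 6.70 and 6.83 with WCE and 7.16 and 7.05 with vehicle. These groups did not overlap, with a log2 fold change of -0.34 ± 0.16 and an adjusted p of 0.297 in limma. DKK2 read 5.14 and 4.98 with WCE, where it was detected on 1 of 2 arrays, and 5.58 and 5.38 with vehicle. Its log2 fold change was -0.42 ± 0.17 with an adjusted p of 0.214 in limma. A second DKK2 probe, detected on 1 WCE array and not kept, differed by 0.04.

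Other genes of the pathway were read in the same fit. They were 88 genes in 4 lists, covering WNT secretion and extracellular regulators, cytoplasmic regulators, nuclear co-factors, and the planar polarity and calcium branches. Of these, 61 were tested and 0 passed the threshold in limma, beside 1.83% of all tested genes. At an unadjusted p below 0.05 there were 8 of the 61, 3 higher and 5 lower with WCE, beside 19.1% of all tested genes. The median log2 fold change of the 61 was -0.06. The smallest p of each list belonged to NOTUM, a secreted enzyme that removes the lipid from WNT proteins (log2 fold change 0.58 ± 0.16, adjusted p 0.107), to DACT3, a Dishevelled-binding inhibitor (0.69 ± 0.16, adjusted p 0.0708), to CBY1, which binds beta-catenin (0.57 ± 0.16, adjusted p 0.121), and to PLCB1, a phospholipase of the calcium branch (-0.68 ± 0.21, adjusted p 0.139). Next in order were KREMEN2, a DKK co-receptor (-0.49 ± 0.25), and LGR6, an R-spondin receptor (-0.34 ± 0.18), then CSNK1E, a kinase acting on Dishevelled (-0.55 ± 0.17), TAX1BP3 (-0.53 ± 0.18), PYGO1, a co-activator (-0.40 ± 0.18), CTNND2 (-0.41 ± 0.19), PLCB4 (-1.17 ± 0.37) and CAMK2D, a calcium-dependent kinase (-0.53 ± 0.19). None of these passed the threshold in limma. CTNND2 and the printed PLCB4 probe were detected on 1 of 2 WCE arrays and kept through vehicle alone, so their directions are partly set by the filter. The other kept PLCB4 probe, ILMN_1736426, detected on all 4 arrays, differed by 0.10. Another kept CSNK1E probe, ILMN_1708858, detected on all 4 arrays, differed by -0.14.

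Of 27 known WNT target genes outside the members, 17 were tested and 1 passed, beside 1.83% of all tested genes. BAMBI, a decoy receptor of the TGF-beta family, rose with WCE: it read 10.38 and 10.22 log2 units with WCE and 9.02 and 8.91 with vehicle, without overlap, a log2 fold change of 1.33 ± 0.16 with an adjusted p of 0.00443 in limma. It passed in 16 of 16 other settings. The next smallest p belonged to NRCAM, a cell adhesion molecule, and MYC, a growth-promoting transcription factor, with log2 fold changes of -0.47 ± 0.17 and -0.38 ± 0.16 and adjusted p of 0.184 and 0.237 in limma. At an unadjusted p below 0.05 there were 3 of the 17, beside 19.1% of all tested genes.

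Other markers measured beside the members differed between the groups as follows, and their part in the members' values was not tested. Over all tested genes, 1.83% passed the threshold and 19.1% had an unadjusted p below 0.05. Of 9 tested luminal prostate markers, 3 fell with WCE: TMPRSS2 by a log2 fold change of -1.66 ± 0.17 (limma, adjusted p 0.00205), STEAP2 by -1.03 ± 0.20 (0.038) and KLK2 by -1.05 ± 0.21 (0.0428). Over the other settings, STEAP2 passed in 11 of 16 and KLK2 in 7 of 15. Of the settings that leave out an array, STEAP2 missed the threshold without WCE replicate 2 (limma, adjusted p 0.0875) or vehicle replicate 2 (0.164), and KLK2 without WCE replicate 2 (0.0921), vehicle replicate 1 (0.208) or vehicle replicate 2 (0.0702). Of the neuroendocrine markers 5 were tested, 0 passed in limma and 2 had an unadjusted p below 0.05, led by CHGB (0.94 ± 0.21, adjusted p 0.0574), SYP (0.61 ± 0.18) and CHGA (0.36 ± 0.21). Among 4 tested stromal markers 0 passed and 1 had an unadjusted p below 0.05, with ACTA2 at 0.66, LUM at 0.51, COL1A1 at 0.35 and DCN at -0.21, while COL1A2, COL3A1, PDGFRA, PDGFRB and THY1 were detected on no array. Among 3 tested leukocyte markers 0 passed and 2 had an unadjusted p below 0.05, with CD68 at -0.69, CD14 at -0.41 and LYZ at 0.25. A second CD68 probe detected on all 4 arrays, ILMN_1714861, differed the other way, by 0.42. All 5 tested targets of the aryl hydrocarbon receptor, which on binding a ligand induces xenobiotic-metabolizing enzymes, rose in the same fit. Their log2 fold changes were 6.61 for CYP1A1, 5.55 for CYP1A2, 4.57 for CYP1B1, 2.97 for TIPARP and 2.03 for NQO1. The adjusted p was no higher than 0.000456 in limma. CYP1A2 was detected on 1 of 2 vehicle arrays, at 5.12 and 5.04 log2 units, so its fold change rests on a vehicle level near background.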

How the data were processed

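RNA of 22Rv1 cells was measured on 4 Illumina arrays, WCE (2) and vehicle (2). The authors deposited raw intensity values, which their values show to be linear and uncorrected, with a detection p-value beside each signal per the file headers. They also deposited processed log2 values, whose ranks equalled those of the raw signals (Spearman's rho 1) and which lay within 0.134 of quantile-normalized log2 signals, with a median of 6.4 on each array; the normalization behind them is not stated in the labels or headers.

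Signals were corrected with normexp in limma 3.58.1 under R 4.3.3, with an offset of 16 and the negative controls' mean and SD derived from detection p-values, then quantile-normalized and taken to log2. The offset shrinks fold changes of dim genes. Of 47320 probes 30112 had 1 gene symbol, 8 several and 17200 none, and 0 symbols needed updating. A probe was kept if both arrays of WCE, of vehicle or of each had a detection p-value below 0.05 (21996, of which 16447 were named), and the brightest kept probe stood for each of 12136 genes, which favours the better-measured transcript. The comparison of WCE with vehicle used lmFit and eBayes on all 4 arrays (2 residual and 7.1 prior degrees of freedom), with Benjamini-Hochberg adjustment over all genes. Steps were tested on simulated data. Replicate numbers were not taken as pairs: across genes the replicate differences of WCE and vehicle correlated at -0.159.

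The members and lists were chosen with earlier results of these data known. Named were all members past the threshold, up to 5 per role with the smallest p, 13 central genes whatever their values, members detected in 1 group only or with probes of opposite sign, and in each other list the genes past the threshold and up to 3 with the smallest p. Alternatives changed the background correction, offset, normalization, source of values, detection filter, probe choice, variance prior and pairing, or left out an array.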

Additional observations from a re-analysis of the deposited data

How the results depend on the processing

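The count of 0 members past the threshold became 1, LEF1 in each case, with no background correction, an offset of 50, the authors' processed values, a strict detection filter (below 0.01 on all 4 arrays), a trended robust variance and a replicate block, and ran between 0 and 2 when 1 array was left out; median scaling, cyclic loess, no detection filter, the mean of a gene's probes and every probe on its own gave 0. Over all genes, 222 calls became 390 with no background correction, 368 with an offset of 50, 402 in the authors' values, 52 with no filter, 457 with a trended robust variance and 130 with median scaling, and ran between 74 and 824 with 1 array left out. Of the 130 calls 76.9% were higher with WCE, beside 63.1% of the 222, and median scaling moved the median of all genes to 0.09 and of the members to 0.02. A fit that leaves 1 array in a group takes its spread from the other group alone. With the replicate number as a block, which the labels do not say marks a shared culture, 744 genes passed. LEF1, TLE2, FZD2 and FZD8 had the same SE in that fit, so its calls rest on a variance shared across genes. A crossed replicate block, added after seeing the data, gave 167 genes and 0 members.

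The signs of 13 members turned under 1 or more settings, the farthest from 0 being FZD3 at -0.27. With median scaling the log2 fold changes of LRP5, FZD1, DVL2, FZD6, RNF43 and TLE1 were 0.0023, 0.022, 0.047, 0.11, 0.0021 and 0.042, and with the mean of probes FZD1 had 0.060. With 1 array left out, FZD3 ran between -0.59 and 0.041, AXIN1 -0.34 and 0.036, FZD9 -0.0056 and 0.26, WNT10B -0.22 and 0.016, LGR4 -0.53 and 0.22, FZD7 -0.25 and 0.072, ZNRF3 -0.038 and 0.12, FZD1 -0.27 and 0.18, DVL2 -0.20 and 0.12, FZD6 -0.065 and 0.028, RNF43 -0.13 and 0.098, and TLE1 -0.044 and 0.036. The cause of these shifts was not tested. The number of arrays, and signal near the negative controls for most ligands, limit what can be seen.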
